A study of Mus musculus with 14 samples.

Results

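Collagen genes were taken as every array probe whose symbol has the form Col, a type number, a and a chain number. A probe was kept where both arrays of any group gave it a detection p-value under 0.05. The rule kept 27 of the 37 collagen genes among 16593 gene symbols on the array, through 35 of 59 collagen probes. Of the 27 genes, 10 of 11 encode fibrillar chains, 4 of 6 encode type IV chains of the basement membrane, and 13 of 20 encode other collagens. The 10 genes without a kept probe were Col11a1, Col13a1, Col19a1, Col23a1, Col25a1, Col4a3, Col4a4, Col6a6, Col8a2 and Col9a3. The kept genes nearest to the threshold were Col27a1, Col28a1 and Col10a1, with detection p-values of 0.0414, 0.0301 and 0.0276. The nearest left out were Col23a1 at 0.0501, Col11a1 at 0.0614 and a second Col3a1 probe at 0.0614.

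RNA from 14 samples, all of strain C57/B6, was hybridised to Illumina mouse beadchips in 7 groups of 2. The first 4 groups came from embryonic stem cells (ESCs) of a blastocyst carrying both the O4-DE-GFP and the O4-PE-RFP reporters. In O4-PE-RFP, tdTomato is read from a 6 kb Oct4 fragment that lacks the distal enhancer, so the label RFP stands for tdTomato driven by the proximal enhancer and promoter of Oct4. Double-reporter ESCs in serum and LIF were sorted into GFP+RFP+ and GFP+RFP- cells. GFP+RFP- ESCs were also taken from serum-free N2B27 medium with LIF and 2i, the kinase inhibitors CHIR99021 (3 µM) and PD0325901 (1 µM). Epiblast-like cells (EpiLCs) of the same reporter genotype were GFP-RFP+. Beside these stood 3 further groups, namely epiblast stem cells (EpiSCs) from epiblasts of embryonic day 6.5 (6.6 in the label of replicate 2), mouse embryonic fibroblasts (MEFs), and ESCs of a blastocyst with the O4-DE-GFP reporter alone, grown in serum and LIF with no sort gate in the labels. The labels name 1 reporter genotype per line and do not state how many clones, passages or embryos were used, or whether feeder cells were present. Nothing states that the replicates were separate cultures, so each p-value rests on a spread among arrays that may be technical only.

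Collagens are secreted proteins whose chains wind into helical trimers. Fibrillar collagens such as types I, III and V assemble into the fibrils of connective tissue, while type IV collagen forms the network of the basement membrane, the sheet on which epithelia and the early epiblast rest. Type VI makes beaded filaments around cells, the FACIT collagens sit on fibril surfaces, and the multiplexins XV and XVIII are attached to basement membranes. In the early mouse embryo type IV collagen is laid down by the extraembryonic endoderm as well as by embryonic cells, and fibroblasts are a main source of types I, III, V and VI.

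Values below are log2 signal after background correction and quantile normalization, given as array 1 and array 2 of a group, and can be compared between arrays for 1 gene but not between genes. A gene was called where the limma adjusted p was under 0.05 over 10481 genes tested. Where a gene was not detected on either array of the dimmer group, its fold is a lower bound against the lowest detected signal and is written as at least. These are bulk samples, in which fewer cells of a type and less RNA per cell cannot be told apart.

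The 2 EpiSC arrays stood apart. Over the 10481 genes tested they correlated at r = 0.976, against 0.997 to 0.998 in each of the other groups. Their scanner medians were 313.5 and 316.8, against 142.6 to 209.4 on the other arrays, and 46.4% to 53.8% of probes were detected on an array. Over the 27 collagen genes the median absolute difference between replicates was 0.67 in EpiSCs and 0.09 to 0.18 elsewhere. 15 collagens differed by over 0.5 between the EpiSC arrays, against 0 to 2 in any other group. Replicate 2 was the higher array for most of them, and replicate 1 was higher for 5 of 27. The widest gap was in Col1a1, at 6.04 and 9.57. Fibroblast genes moved with this gap: the mean log2 signal of 14 fibroblast and feeder genes was 6.90 on EpiSC array 1 and 8.79 on array 2. Acta2, a smooth muscle and myofibroblast actin, read 10.19 and 15.13, and Dcn, a fibril-binding proteoglycan, read 7.59 and 11.13. The mean of the extraembryonic endoderm list was close on the 2 arrays, at 8.08 and 7.99, but its genes differed in opposite directions. Amn (9.27 and 6.35), Sox17 (8.06 and 6.76) and Foxa2 (7.99 and 6.53) were higher on array 1. Thbd (4.71 and 9.43), Dab2 (9.99 and 10.76) and Sox7 (6.16 and 7.22) were higher on array 2. The part of either set of cells in the collagen values was not tested. The EpiSC arrays also widen the spread that all comparisons share, so collagen counts without 1 or both of them are given beside each comparison. Counts of the other gene lists are given with them only. A gene of those lists with a wide EpiSC gap, such as Acta2, can miss a call for that reason.

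**Figure D1:**
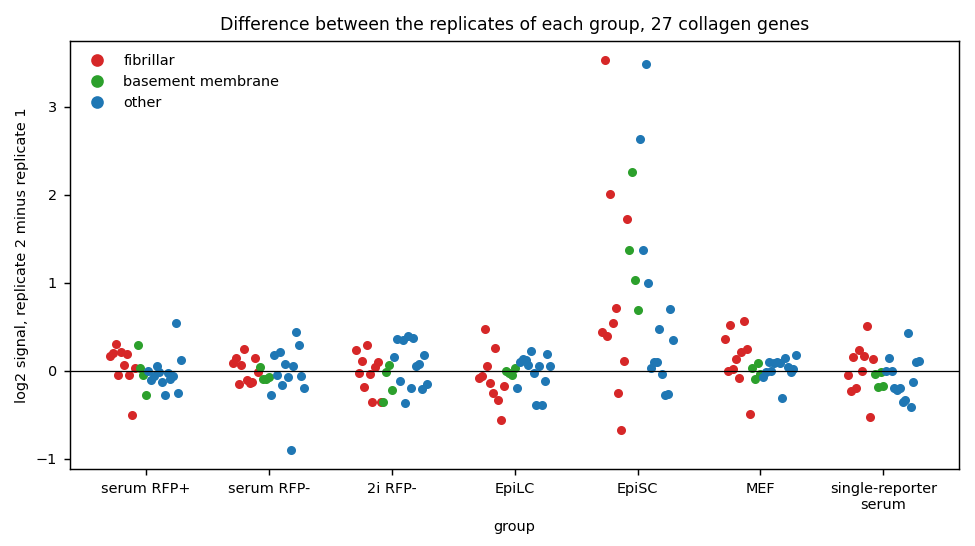
Replicate 2 minus replicate 1, in log2 signal, for the 27 collagen genes in each of the 7 groups, with points coloured by class. The EpiSC points reach 3.53 (Col1a1), while no other group has a gap above 0.90.

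The first question was how collagen expression in fibroblasts compares with that in the 6 pluripotent groups. MEFs were called higher for 17 of the 27 collagen genes and lower for 5, where 39.8% of all genes tested were called higher and 44.1% lower (84% in either direction). All 4 type IV genes were higher, as were 7 of 10 fibrillar genes and 6 of 13 others. The median difference was 2.55 over the 27 genes and -0.09 over all genes. Col4a6, Col5a2, Col10a1 and Col27a1 entered the list only through detection in MEFs, so their direction here was set by the choice of members. The count of 4 type IV genes therefore holds 3 whose direction the choice did not set. The label of the MEFs fits their markers: the 14 fibroblast genes tested were all higher, and the 9 general pluripotency genes were all lower, with a mean of 5.51 on both MEF arrays and 10.81 to 12.43 on the 12 pluripotent arrays. Meox2 was the 1 gene of the 15 on the fibroblast list with no probe detected on both arrays of any group.

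Type I collagen, the main fibril protein of skin, bone and tendon, is made of the chains encoded by Col1a1 and Col1a2. Col1a1 read 15.67 on both MEF arrays. In the pluripotent groups it read 9.66 and 9.86 in RFP+ serum ESCs, 9.62 and 9.77 in RFP- serum ESCs, 10.60 and 10.57 in 2i ESCs, 6.07 and 6.01 in EpiLCs, 6.04 and 9.57 in EpiSCs, and 13.64 and 13.41 in single-reporter ESCs. MEFs lay above all 12 pluripotent arrays, and the EpiLC arrays with EpiSC array 1 were the lowest. MEFs were 68.6-fold above the mean of the pluripotent groups (log2 6.10, SE 0.62, adjusted p = 6.4e-06). Col1a2 read 11.63 and 12.15 in MEFs, 5.88 and 6.18 in RFP+ serum ESCs, 6.29 and 6.14 in RFP- serum ESCs, 6.46 and 6.57 in 2i ESCs, 5.27 and 5.74 in EpiLCs, 5.17 and 5.57 in EpiSCs, and 7.09 and 7.25 in single-reporter ESCs. It was not detected on any EpiLC or EpiSC array, and MEFs were 54.2-fold higher (log2 5.76, SE 0.16, adjusted p = 5.4e-10).

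Col3a1, the single chain of type III collagen of blood vessels and soft tissue, had the widest gap among the fibrillar genes. It read 12.45 and 12.81 in MEFs, 5.94 and 6.11 in RFP+ serum ESCs, 5.68 and 5.77 in RFP- serum ESCs, 8.41 and 8.65 in 2i ESCs, 5.01 and 4.93 in EpiLCs, 5.15 and 5.59 in EpiSCs, and 8.45 and 8.40 in single-reporter ESCs. MEFs were 69.6-fold higher (log2 6.12, SE 0.12, adjusted p = 6.8e-11). Among the pluripotent groups, 2i and single-reporter ESCs were the high ones and overlapped each other. Col5a1, a type V chain that limits fibril width, rose by 4.36 (SE 0.36). Its MEF scanner signals were 59200 and 56160, and the deposited table carries no saturation flag. Those of Col1a1 were 55220 and 51890, and those of Col4a1 were 45170 and 46440, so the same limit holds for their MEF folds. Col5a2, the other main type V chain, was at least 12.8-fold higher in MEFs and was not detected in any pluripotent group. Col24a1, a minor fibrillar chain, rose by 3.20 (2.52 by its second probe), and Col27a1, another, was at least 1.51-fold higher. Col2a1, the fibril collagen of cartilage, fell by 1.18 (SE 0.33, adjusted p = 0.0066), but its second probe gave -0.69 and no call (0.11). Col5a3 and Col11a2 were not called, and Col11a2 stayed between 5.30 and 6.41 on all 14 arrays.

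Type IV collagen of nearly all basement membranes is built from the chains of Col4a1 and Col4a2, which lie head to head and share a promoter region. Col4a5 and Col4a6 form a second head-to-head pair on the X chromosome and supply chains of more restricted basement membranes. The start regions of these 4 genes are shown because the expression of each pair is described next, and 1 pair shares its start region while the other does not. Each runs from 250 bases before to 50 after the annotated start (RefSeq, GRCm38.p6). In the first pair, capitals mark the 78 bases that both windows contain, read on opposite strands, and the annotated starts are 21 bases apart. In the second pair the starts are 1343 bases apart, the windows do not overlap, and capitals mark matches to the CCAAT box and to the GC box on either strand.
Col4a1, chr8:11312777-11313076, minus strand: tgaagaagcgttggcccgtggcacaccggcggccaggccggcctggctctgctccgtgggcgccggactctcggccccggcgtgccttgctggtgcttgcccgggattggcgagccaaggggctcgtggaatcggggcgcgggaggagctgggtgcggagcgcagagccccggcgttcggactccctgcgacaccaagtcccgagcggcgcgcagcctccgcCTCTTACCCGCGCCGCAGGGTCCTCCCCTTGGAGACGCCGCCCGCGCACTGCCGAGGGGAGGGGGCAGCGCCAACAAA
Col4a2, chr8:11312555-11312854, plus strand: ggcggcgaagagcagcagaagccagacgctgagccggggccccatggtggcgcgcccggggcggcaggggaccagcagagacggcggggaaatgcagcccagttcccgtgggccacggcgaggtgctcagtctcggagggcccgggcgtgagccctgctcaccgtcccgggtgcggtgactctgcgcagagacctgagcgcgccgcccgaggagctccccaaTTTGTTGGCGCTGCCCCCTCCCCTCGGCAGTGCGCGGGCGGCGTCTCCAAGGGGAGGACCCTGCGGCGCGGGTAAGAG
Col4a5, chrX:141475169-141475468, plus strand: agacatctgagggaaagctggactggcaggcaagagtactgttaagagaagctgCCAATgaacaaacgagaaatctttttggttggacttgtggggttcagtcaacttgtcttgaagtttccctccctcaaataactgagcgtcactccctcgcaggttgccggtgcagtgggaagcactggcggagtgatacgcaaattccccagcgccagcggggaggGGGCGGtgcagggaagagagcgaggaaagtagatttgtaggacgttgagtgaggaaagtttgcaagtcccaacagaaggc
Col4a6, chrX:141474027-141474326, minus strand: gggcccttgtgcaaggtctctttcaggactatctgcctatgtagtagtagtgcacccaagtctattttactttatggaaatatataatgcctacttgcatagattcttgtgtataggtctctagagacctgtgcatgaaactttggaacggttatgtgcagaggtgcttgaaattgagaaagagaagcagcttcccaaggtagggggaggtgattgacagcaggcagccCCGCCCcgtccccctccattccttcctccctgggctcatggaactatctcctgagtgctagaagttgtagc

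Both strands were searched for the CCAAT box, the GC box GGGCGG and the TATA box TATAAA, in the windows of the 22 collagen genes with an entry, 25 windows in all. The CCAAT box was in 10 of these windows (40%), against 37.4% of all 32851 windows of the table. The GC box was in 15 (60%), against 35.7%. The TATA box was in 4 (16%), against 13.6%. The windows of Col4a1, Col4a2 and Col4a5 hold both of the first 2 motifs, and that of Col4a6 holds the GC box alone. In Col4a2 the CCAAT match starts at -32 from the annotated start, and in Col4a1 the match is on the reverse strand at -145. A match describes these letters and not a bound site.

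Col4a1 read 15.38 and 15.47 in MEFs, 9.38 and 9.33 in RFP+ serum ESCs, 9.47 and 9.38 in RFP- serum ESCs, 8.88 and 8.95 in 2i ESCs, 10.63 and 10.58 in EpiLCs, 10.91 and 11.94 in EpiSCs, and 13 and 12.99 in single-reporter ESCs. Col4a2 read 14.90 and 14.81 in MEFs, 8.92 and 8.95 in RFP+ serum ESCs, 9.05 and 8.96 in RFP- serum ESCs, 8.05 and 8.04 in 2i ESCs, 9.11 and 9.08 in EpiLCs, 9.05 and 11.31 in EpiSCs, and 13.06 and 12.88 in single-reporter ESCs. Col4a5 read 12.54 and 12.57 in MEFs, 5.45 and 5.74 in RFP+ serum ESCs, 5.70 and 5.74 in RFP- serum ESCs, 5.54 and 5.18 in 2i ESCs, 5.83 and 5.83 in EpiLCs, 6.26 and 7.63 in EpiSCs, and 9.84 and 9.80 in single-reporter ESCs. The group means of Col4a1 and Col4a2 had the same order, which was MEF, single-reporter, EpiSC, EpiLC, RFP- serum, RFP+ serum and 2i from high to low. Col4a5 shared the first 5 places, and its RFP+ serum and 2i readings, not detected on any array, have no order. MEFs and single-reporter ESCs did not overlap any other group in them. The 2 serum groups, neighbours in this order, were not called different for any of the 3. For Col4a2 the EpiLC arrays fell between the 2 EpiSC arrays. Col4a6 was detected on both arrays only in MEFs, at 7.59 and 7.55. It was detected on 1 of the EpiSC arrays, which read 5.46 and 6.15, and read 4.65 to 5.10 on the other 10 arrays. MEFs were above the pluripotent mean 64.4-fold for Col4a5 (log2 6.01, SE 0.26, adjusted p = 8.6e-09), 35.5-fold for Col4a2 (5.15, SE 0.40, 7.5e-07), and 31.3-fold for Col4a1 (4.97, SE 0.19, 3.7e-09). Col4a6 rose by 2.55 (SE 0.15, adjusted p = 7.7e-08), and by 1.67 by its second probe.

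**Figure D2:**
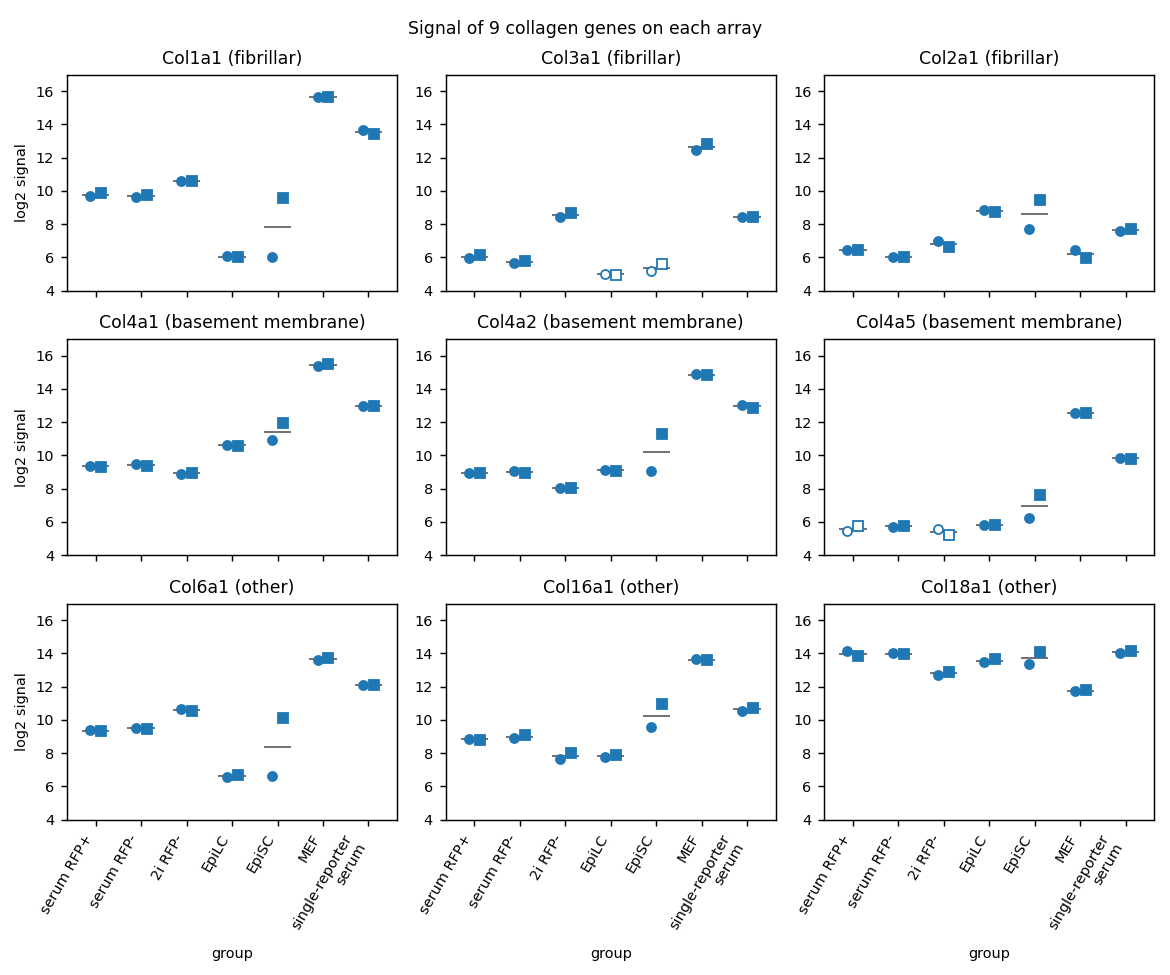
Log2 signal of 9 collagen genes on each array, with a circle for replicate 1, a square for replicate 2, a line at the group mean, and open symbols where neither array of the group detected the gene. MEFs are the highest group for 7 of the genes, while Col2a1 is high in EpiLCs (8.87 and 8.70) and Col18a1 is lowest in MEFs (11.76 and 11.78).

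Among the other collagens, Col7a1, whose product forms the anchoring fibrils under the epidermis, read 13.45 and 13.38 in MEFs. It read 7.98 and 7.98 in RFP+ serum ESCs, 8.25 and 7.98 in RFP- serum ESCs, 6.79 and 6.95 in 2i ESCs, 7.28 and 7.08 in EpiLCs, 7.28 and 9.91 in EpiSCs, and 9.16 and 9.16 in single-reporter ESCs. MEFs were 43.1-fold above the pluripotent mean (log2 5.43, SE 0.47, adjusted p = 1.7e-06; 4.38 by the second probe), and the highest pluripotent array was EpiSC array 2. Col16a1, a FACIT collagen, read 13.64 and 13.63 in MEFs, 8.88 and 8.78 in RFP+ serum ESCs, 8.90 and 9.08 in RFP- serum ESCs, 7.62 and 7.98 in 2i ESCs, 7.78 and 7.88 in EpiLCs, 9.56 and 10.93 in EpiSCs, and 10.56 and 10.71 in single-reporter ESCs. The 2i and EpiLC groups overlapped at the bottom, and MEFs were 23.9-fold above the pluripotent mean (log2 4.58, SE 0.26, adjusted p = 6.3e-08).

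The type VI genes Col6a1 and Col6a2 encode chains of 1 heterotrimer. Col6a1 read 13.63 and 13.73 in MEFs, 9.39 and 9.33 in RFP+ serum ESCs, 9.52 and 9.47 in RFP- serum ESCs, 10.63 and 10.51 in 2i ESCs, 6.54 and 6.67 in EpiLCs, 6.65 and 10.14 in EpiSCs, and 12.12 and 12.12 in single-reporter ESCs. Col6a2 read 10.26 and 10.26 in MEFs, 5.61 and 5.66 in RFP+ serum ESCs, 5.65 and 5.86 in RFP- serum ESCs, 7.14 and 7.49 in 2i ESCs, 5.10 and 5.22 in EpiLCs, 5.47 and 6.47 in EpiSCs, and 8.70 and 8.51 in single-reporter ESCs. Both genes were highest in MEFs, then single-reporter ESCs, then 2i ESCs. The group mean of Col6a1 was lowest in EpiLCs, whose 2 arrays lay on either side of EpiSC array 1. Col6a2 was not detected in EpiLCs or RFP+ serum ESCs, so these have no order for it. MEFs were 19.2-fold above the pluripotent mean for Col6a1 (log2 4.26, SE 0.61, adjusted p = 9.1e-05) and 14.4-fold for Col6a2 (3.85, SE 0.20, 3.4e-08). Col10a1, the network collagen of hypertrophic cartilage, was at least 1.72-fold higher. Col14a1, a FACIT collagen, was called higher (adjusted p = 0.0089) although it was not detected in MEFs, and is given no fold.

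The genes lower in MEFs besides Col2a1 were all of the other class. Col18a1, the multiplexin whose C-terminal fragment is endostatin, read 11.76 and 11.78 in MEFs against 12.72 to 14.12 on the pluripotent arrays, and was 3.78-fold lower (log2 -1.92, SE 0.15, adjusted p = 6.6e-07). Col9a2, a chain of the FACIT collagen of cartilage, was not detected in MEFs and was at least 3.06-fold lower (adjusted p = 1.2e-08). Col17a1, a transmembrane hemidesmosome collagen, and Col26a1 were called lower but were not detected in MEFs and lay too near background for a bound on the fold. Col26a1 had entered the list only through EpiSCs. Without both EpiSC arrays the counts were 16 higher and 5 lower, with Col14a1 lost (adjusted p = 0.091). Without both single-reporter arrays they were 19 and 5.

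**Figure D3:**
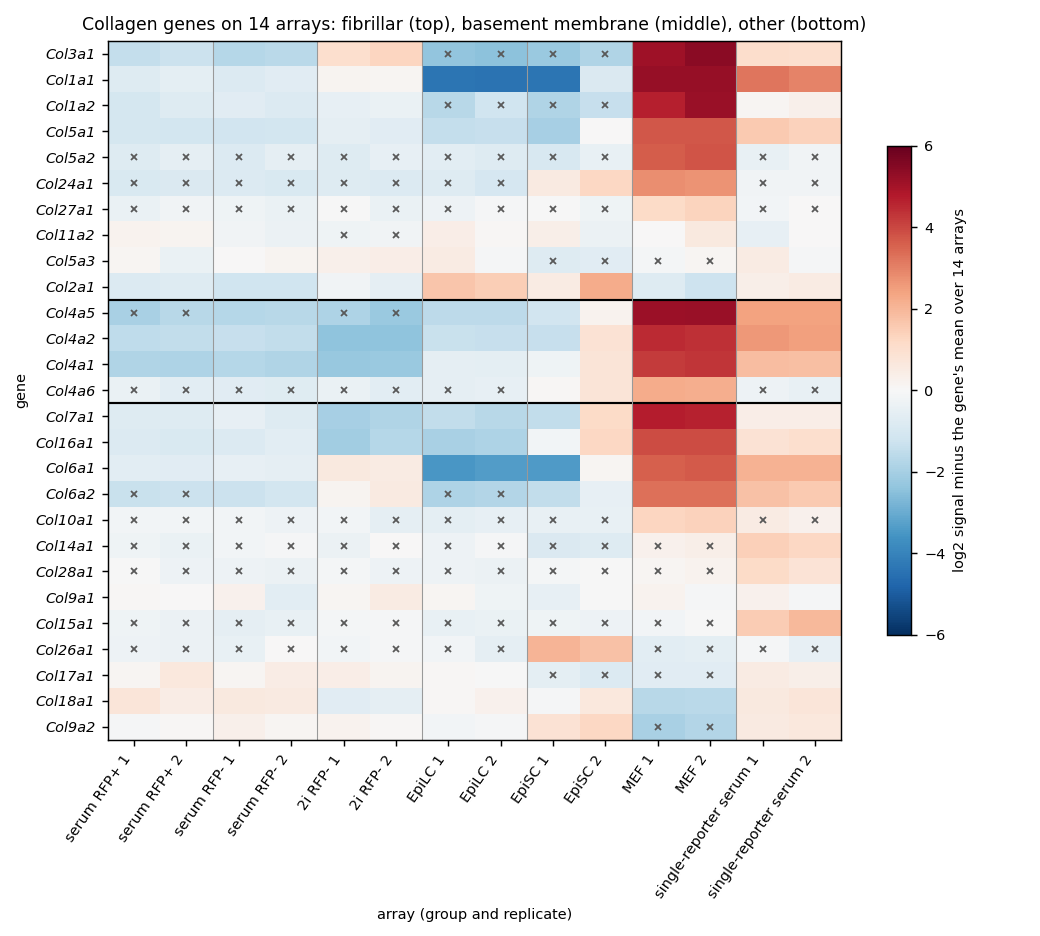
Log2 signal minus the gene's mean over the 14 arrays for the 27 collagen genes, in blocks of fibrillar, basement membrane and other genes, with a cross where no array of the group detected the gene. By group mean the MEF columns are the highest for 17 genes and the single-reporter columns for 5, some of which entered the list only through that group. The 2 EpiSC columns differ from each other.

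The second question was how ESCs in 2i differ from ESCs of the same reporter gate in serum. In 2i, 3 of 27 collagen genes were called higher and 2 lower, where 19.7% of all genes were called higher and 20% lower (39.7% in either direction). Col3a1 rose 7.01-fold (log2 2.81, SE 0.16, adjusted p = 1.5e-06), and Col6a2 rose 2.95-fold (1.56, SE 0.26, 0.0011). Both had no overlap between the groups. Col15a1, the other multiplexin, was called (adjusted p = 0.031) but was detected on neither side. Col16a1 was 2.28-fold lower in 2i (log2 -1.19, SE 0.34, adjusted p = 0.019). Col18a1 read 12.72 and 12.90 in 2i against 14.02 and 13.96 in serum, and was 2.27-fold lower (-1.18, SE 0.19, 0.00094). The median difference was 0.10 over the collagen genes and 0.01 over all genes.

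Several genes whose arrays did not overlap were not called at the shared spread. Col6a1 was 1.07 higher (adjusted p = 0.33) and Col1a1 0.89 higher (0.43), while Col7a1 differed by -1.24 (0.14), Col4a2 by -0.96 (0.18) and Col4a1 by -0.51 (0.13). Without both EpiSC arrays, 7 collagen genes were higher and 6 lower, where 50.2% of all genes were called, and the 5 genes called with all arrays were among them. The genes then added were Col1a1 (adjusted p = 6.9e-05), Col6a1 (3.1e-06), Col2a1 (0.0028), Col5a1 (0.00073) on the higher side, and Col4a1 (0.00015), Col4a2 (8.5e-06), Col4a5 (0.033), Col7a1 (1.2e-05) on the lower. At that setting the fibrillar and type VI genes called were all higher in 2i, and the type IV genes called were all lower. A second Col7a1 probe differed by -0.21 in place of -1.24. Fitting only the groups compared gave 8 higher and 5 lower. Of 14 fibroblast genes, 5 were called lower in 2i and 1 higher, where 20% of all genes were called lower and 19.7% higher. The mean signal of the list was 7.67 and 7.70 against 8.78 and 8.70 in RFP- serum ESCs. Acta2 fell by 3.62 (adjusted p = 0.030), and Tagln, a contractile gene whose product binds actin, was at least 2.87-fold lower. Of 11 extraembryonic endoderm genes, 5 were lower and 1 higher. Their part in the collagen values was not tested.

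Within serum, the GFP+RFP+ and GFP+RFP- gates had no collagen gene called between them, though the arrays of some, such as Col11a2 and Col3a1, did not overlap. With 2 arrays a group, lack of overlap alone does not show a difference. None of the 27 was called by limma, with adjusted p-values of 0.99 to 1.0, where 0.124% of all genes were called (13 genes, all lower in RFP+ cells). At an unadjusted p under 0.05, 578 genes (5.51%) passed. The differences ran from -0.24 (Col5a3) to 0.46 (Col11a2), with Col2a1 at 0.40 and Col3a1 at 0.30. Without the EpiSC arrays 46 genes were called and again no collagen. The 95% interval reached 0.48 to either side for the median collagen gene and 1.83 for the widest, Col1a1 (-1.77 to 1.89), so differences within these intervals could not be resolved by 2 arrays a group.

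The third question was how collagens differ between EpiLCs, a model of the formative epiblast, and 2i ESCs. EpiLCs were called higher for 3 collagen genes and lower for 6, where 27.5% of all genes were called higher and 27.6% lower (55.1% in either direction). The 6 lower genes were 3 fibrillar genes and 3 others, among them both type VI genes. Col1a1 was 23.3-fold lower in EpiLCs (log2 -4.54, SE 0.82, adjusted p = 0.00098), and Col6a1 was 15.6-fold lower (-3.96, SE 0.80, 0.0021). The second Col6a1 probe gave -4.06. Col3a1 was at least 6.69-fold lower (adjusted p = 7.5e-08), Col6a2 at least 2.89-fold (6.7e-05) and Col1a2 at least 1.66-fold (0.0026), all 3 being undetected in EpiLCs. Col15a1 was also called (adjusted p = 0.038), with no detection on either side.

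The genes higher in EpiLCs were 1 fibrillar, 1 type IV and 1 multiplexin gene. Col2a1 read 8.87 and 8.70 in EpiLCs against 7.0 and 6.65 in 2i ESCs, 6.41 and 6.44 in RFP+ serum ESCs, 6.03 and 6.02 in RFP- serum ESCs, 7.72 and 9.45 in EpiSCs, 6.44 and 5.95 in MEFs, and 7.57 and 7.70 in single-reporter ESCs. It was 3.89-fold above 2i (log2 1.96, SE 0.43, adjusted p = 0.0032), and the second probe gave 1.91. Col4a1 was 3.23-fold above 2i (1.69, SE 0.25, 0.00024). Its partner Col4a2 was 1.06 higher and not called (adjusted p = 0.12), though the arrays did not overlap. Col18a1 read 13.47 and 13.66 in EpiLCs and was 1.68-fold above 2i (0.75, SE 0.19, 0.0074), while its second probe gave 0.51 and no call (0.060). Without both EpiSC arrays the counts were 6 higher and 8 lower, where 63% of all genes were called, and all 9 genes were kept. Col4a2 (adjusted p = 2.1e-06), Col4a5 (0.0076) and Col7a1 (0.027) joined the higher side. Col5a1 (2.9e-05) and Col9a2 (0.042) joined the lower side. The mean of the fibroblast genes was 7.49 and 7.39 in EpiLCs against 7.67 and 7.70 in 2i. Of its 14 genes, 2 were called higher (Tagln and Cdh2) and 3 lower (Lum, Pdgfra and Thy1), with Lum and Pdgfra undetected in EpiLCs and Tagln undetected in 2i. Of 11 extraembryonic endoderm genes, 3 were higher and 2 lower. Their part in the collagen values was not tested. Fitting only the groups compared gave 6 collagens higher. The 2i arrays serve in the comparisons with serum ESCs, EpiLCs and EpiSCs, so these 3 sets of differences are not independent, and the MEF comparison uses all 14 arrays.

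**Figure D4:**
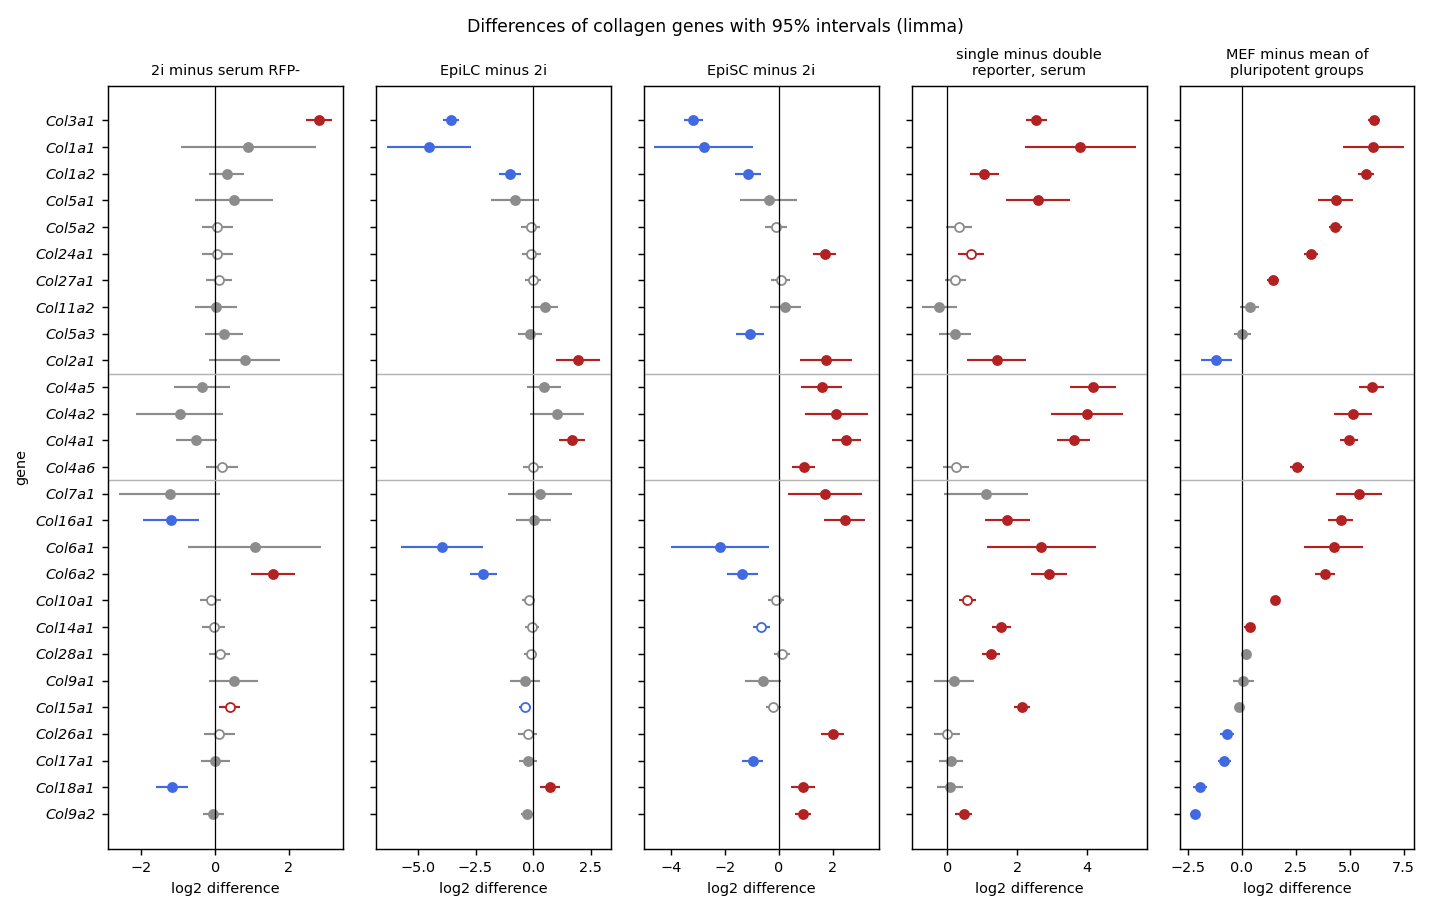
Log2 differences of the 27 collagen genes in 5 comparisons with limma 95% intervals, red where called higher, blue where called lower and grey where not called, and open where neither group detected the gene. Col3a1 lies at 2.81 for 2i against serum, Col1a1 lies at -4.54 for EpiLC against 2i, and the intervals of Col1a1 and Col6a1 are among the wide ones.

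EpiSCs, lines derived from the post-implantation epiblast, were compared with 2i ESCs and with EpiLCs. Against 2i, EpiSCs were called higher for 11 collagen genes and lower for 8, where 32.4% of all genes were called higher and 33.9% lower (66.3% in either direction). All 4 type IV genes were higher, with 2 of 10 fibrillar and 5 of 13 others. The count of 11 and that of the others include Col26a1, which entered the list only through detection in EpiSCs. The direction of Col26a1 here was set by the choice of members. Col4a1 rose 5.70-fold (log2 2.51, SE 0.25, adjusted p = 1.1e-05) and Col4a2 4.41-fold (2.14, SE 0.52, 0.0049). Col4a5 was at least 2.13-fold higher (adjusted p = 0.0021), and Col4a6, detected on 1 EpiSC array and on none in 2i, was called higher with no bound on the fold (0.0019). The type IV rise was carried unequally by the 2 arrays. With EpiSC array 2 alone Col4a2 was 3.26 above 2i and Col4a1 3.02, and with array 1 alone they were 1.01 and 1.99 above it.

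Of the other genes, Col16a1 rose 5.46-fold in EpiSCs (log2 2.45, SE 0.34, adjusted p = 0.00012), Col7a1 3.29-fold (1.72, adjusted p = 0.031), and Col2a1 3.39-fold (1.76, adjusted p = 0.0046). The second Col7a1 probe differed by 0.05 and was not called (0.86). Col26a1, a collagen with short collagenous stretches, read 7.43 and 7.16 in EpiSCs and 4.79 to 5.41 on the other 12 arrays. It was detected in no other group, entered the list through EpiSCs alone, and was at least 2.72-fold above 2i. The 2 EpiSC arrays were close for this gene. Col24a1 read 6.34 and 7.05 in EpiSCs, 8.58 and 8.50 in MEFs, 5.59 on both single-reporter arrays and 4.78 to 5.03 on the others, and was at least 1.79-fold above 2i. Its second probe was called too, at 0.95 on the log2 scale. Col9a2 read 8.35 and 8.70 in EpiSCs, 7.70 and 7.55 in 2i ESCs, 7.33 and 7.39 in EpiLCs, 7.43 and 7.55 in RFP+ serum ESCs, 7.77 and 7.58 in RFP- serum ESCs, 8.0 and 8.11 in single-reporter ESCs, and 5.53 and 5.71 in MEFs. EpiSCs were its highest group on both arrays, and it rose by 0.91 against 2i (adjusted p = 0.00014). Col18a1, at 13.36 and 14.06, rose by 0.90 (0.0021).

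The genes lower in EpiSCs than in 2i were again types I, III and VI, with 3 genes dim in both groups. Col3a1 was at least 7.06-fold lower (adjusted p = 1.1e-07), Col1a1 6.87-fold (log2 -2.78, 0.013), Col6a1 4.53-fold (-2.18, 0.036; -1.86 and 0.096 by the second probe) and Col6a2 2.55-fold (-1.35, 0.0012). Col1a2 was at least 1.75-fold lower (0.00094). Col5a3, a minor type V chain, read 5.03 and 5.14 in EpiSCs, 6.10 and 6.20 in 2i ESCs, 6.28 and 5.72 in EpiLCs, 5.93 and 5.43 in RFP+ serum ESCs, 5.84 and 5.99 in RFP- serum ESCs, 5.70 and 5.95 in MEFs, and 6.28 and 5.75 in single-reporter ESCs. It was undetected in EpiSCs and MEFs and at least 1.35-fold lower in EpiSCs than in 2i (adjusted p = 0.0025). Col17a1 was at least 1.43-fold lower (0.00074), and Col14a1 was called with no detection on either side (0.0020). Fitted on the EpiSC and 2i arrays alone, the higher count was 5 in place of 11, and Col1a1, Col2a1, Col4a2, Col4a5, Col6a1 and Col7a1 were no longer called (adjusted p of 0.13, 0.082, 0.091, 0.063, 0.21 and 0.19). With all groups in the fit, all 19 calls held with either EpiSC array alone, on the assumption that a lone array varies like the other groups, but the sizes did not. Col1a1 was -1.01 with array 2 alone and -4.54 with array 1 alone, and Col6a1 was -0.43 and -3.92. Col3a1 was detected on neither EpiSC array. Col5a1, not called with both arrays, was called higher with array 2 alone (0.64, adjusted p = 0.00037) and lower with array 1 alone (-1.37, 2.7e-06).

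Against EpiLCs, EpiSCs were called higher for 8 collagen genes and lower for 3, where 27.9% of all genes were called higher and 28.5% lower (56.4% in either direction). The 8 include Col26a1, whose direction was again set by the choice of members. Col16a1 rose 5.35-fold (log2 2.42, adjusted p = 0.00022), Col26a1 at least 2.85-fold (8.8e-06) and Col24a1 at least 1.87-fold (3.5e-05). Col9a2 rose 2.23-fold (1.16, 4.7e-05), Col4a5 2.16-fold (1.11, 0.018) and Col4a1 1.77-fold (0.82, 0.017). Col4a6 and Col6a2 were also called, at least 1.01-fold and 1.14-fold higher. The lower genes were Col5a3, at least 1.22-fold, Col17a1, at least 1.21-fold, and Col14a1, detected on neither side. The 2 other Col17a1 probes were not called (-0.19 and -0.10). Fitting only the groups compared gave 4 higher. Col1a1 (1.76, adjusted p = 0.092), Col6a1 (1.78, 0.085), Col7a1 (1.42, 0.074) and Col4a2 (1.08, 0.11) were not called. These 4 genes depended on the array. With array 2 alone Col1a1 and Col6a1 were each 3.53 above EpiLCs, and with array 1 alone they were at 0.00 and 0.04. Col2a1 was called at 0.67 with array 2 and at -1.06 with array 1, and Col5a1 at 1.42 and -0.59. The counts were 16 higher and 3 lower with array 2 alone, and 7 and 5 with array 1 alone, where Col6a2 was lost (adjusted p = 0.10). Of 14 fibroblast genes, 2 were higher and 2 lower in EpiSCs against 2i, and 2 and 2 against EpiLCs. Of 11 extraembryonic endoderm genes, 7 were higher in EpiSCs than in 2i and 1 lower, and 8 were higher than in EpiLCs. Sox17 and Foxa2, both endoderm regulators, were at least 2.94-fold and 2.64-fold above 2i. The defining markers Gata4 and Afp had no probe detected on both arrays of any group. The part of these cells in the collagen differences was not tested.

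The last comparison set the single-reporter ESCs against the mean of both double-reporter groups in the same serum medium. It differs by reporter, by cell line and by the stated sort gate, which cannot be told apart. Single-reporter ESCs were called higher for 17 collagen genes and lower for none, where 31.3% of all genes were called higher and 31.8% lower by limma (63.1% in either direction). At 2-fold or more, 14 of the 27 were higher, where 10.5% of all genes were. Both counts, and that of the other class, include Col14a1, Col15a1 and Col28a1, which entered the list only through detection in single-reporter ESCs. Their direction here was set by the choice of members. The median difference was 1.11 over the collagen genes and 0.00 over all genes. The higher genes were 6 of 10 fibrillar, 3 of 4 type IV and 8 of 13 others. Col24a1 among the fibrillar genes and Col10a1 among the others were called with no detection on either side. Without the EpiSC arrays 20 were higher and none lower, where 70.5% of all genes were called in either direction.

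The type IV genes Col4a5 and Col4a2 led the list by size, and Col1a1 came between them and Col4a1. Col4a5 was 17.9-fold higher (log2 4.16, SE 0.29, adjusted p = 1.2e-06), Col4a2 16-fold (4.0, SE 0.45, 3.4e-05) and Col4a1 12.2-fold (3.61, SE 0.21, 3.9e-07), while Col4a6 was not called (0.24, 0.23). Col1a1 was 13.9-fold higher (3.80, SE 0.71, 0.00097), Col3a1 5.86-fold (2.55, 2.5e-07) and Col1a2 2.07-fold (1.05, 0.00068). Col5a1 read 13.70 and 13.51 in single-reporter ESCs, 11.06 and 11.01 in RFP+ serum ESCs, 10.97 and 11.04 in RFP- serum ESCs, 11.61 and 11.43 in 2i ESCs, 10.71 and 10.76 in EpiLCs, 10.15 and 12.16 in EpiSCs, and 15.86 and 15.88 in MEFs. It was 6.02-fold above the double-reporter serum ESCs (2.59, 0.00033), and both arrays lay between MEFs and the other ESCs. Col2a1 was 2.66-fold higher (1.41, 0.0074), but its second probe gave 0.75 and no call (0.15). Col6a2 was 7.52-fold higher (2.91, 2.4e-06), Col6a1 6.45-fold (2.69, 0.0069) and Col16a1 3.29-fold (1.72, 0.00053).

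Col14a1, Col15a1 and Col28a1 were detected in single-reporter ESCs and in no other group, MEFs included, and entered the list that way. Col15a1 read 6.88 and 7.31 there and 4.84 to 5.33 on the other 12 arrays, at least 2.67-fold above double-reporter serum ESCs. Col14a1 read 7.13 and 6.94 there and 4.86 to 6.07 elsewhere, at least 2.55-fold higher. Col28a1, a collagen known from peripheral nerve, read 6.30 and 5.95 there and 4.77 to 5.34 elsewhere, at least 1.36-fold higher. Col18a1 (0.08) and Col7a1 (1.11, adjusted p = 0.093) were not called. Fibroblast genes moved with this comparison: 10 of 14 were higher and 2 lower, and the mean of the list was 10.38 and 10.43 on the single-reporter arrays, against 8.64 to 8.78 in double-reporter serum ESCs and 12.44 and 12.47 in MEFs. 13 of its 15 genes were detected on each single-reporter array, and 12 or 13 on each double-reporter serum array. Lum, a fibril-binding proteoglycan, rose by 4.57, and Acta2 was 2.19 higher and not called (adjusted p = 0.077). The Acta2 arrays did not overlap, at 15.79 and 15.75 against 13.53 to 13.64, and its spread holds the wide EpiSC gap. Of 11 extraembryonic endoderm genes, 5 were higher and 1 lower (median 0.46), with Gata6 and Sox7, both endoderm regulators, up by 2.40 and 1.43. Gata6 read 7.80 and 8.17 in single-reporter ESCs and was higher still in MEFs, at 9.0 and 8.93. Sox17, Foxa2, Foxq1 and Ttr of the same list were not detected on either single-reporter array. All 9 general pluripotency genes were detected, and 6 were called lower and none higher (median -0.59), with Lin28a at -2.80 and Tdgf1 at -2.44. The 8 genes of the naive state went the other way, with 4 higher and 2 lower (median 0.66). Of 7 genes of the primed state, 6 were lower and none higher (median -1.18). The part of fibroblast, endoderm or pluripotency genes in the collagen values was not tested.

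**Figure D5:**
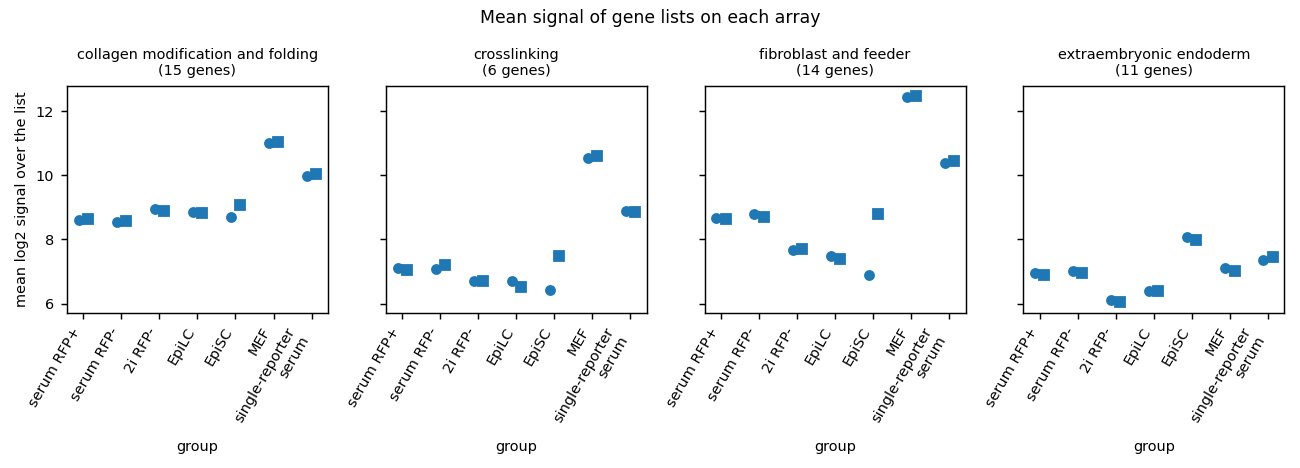
Mean log2 signal of 4 gene lists on each array, by group. The fibroblast and feeder list is highest in MEFs (12.44 and 12.47), then in single-reporter ESCs (10.38 and 10.43), and separates the EpiSC arrays (6.90 and 8.79).

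Collagen chains are hydroxylated, folded and cross-linked by dedicated proteins, and these were counted in the same comparisons. All 15 modification and folding genes tested, of 16 on the array, were higher in MEFs (median 2.09), and 14 were higher and 1 lower in single-reporter ESCs (1.30). In 2i, 6 were higher and 1 lower, in EpiLCs against 2i 6 and 7, in EpiSCs against 2i 5 and 5, and in EpiSCs against EpiLCs 6 and 4. The shares called in these 4 comparisons were 46.7%, 86.7%, 66.7% and 66.7%, against 39.7%, 55.1%, 66.3% and 56.4% of all genes, so those of EpiSCs against 2i and of 2i against serum lay near the background. P4ha1, a catalytic subunit of the prolyl hydroxylase, was 4.76-fold higher in 2i than in serum (adjusted p = 2.7e-05), fell by 1.02 in EpiLCs against 2i (0.0021), and rose by 2.45 in single-reporter ESCs. P4ha2, its paralog, differed by 0.16 in 2i and rose by 2.34 in single-reporter ESCs. P4hb, the shared partner subunit, rose by 0.44 in 2i and fell by 0.65 in EpiLCs. Serpinh1, the collagen chaperone HSP47, was 0.24 higher in 2i (adjusted p = 0.30) and rose by 0.60 in EpiLCs (0.012) and by 1.46 in EpiSCs (3.1e-05) against 2i. So Serpinh1 was higher in EpiLCs, where types I, III and VI were lower and Col4a1 was higher. Plod2, a lysyl hydroxylase, differed by -0.24 in 2i and rose by 0.62 in EpiLCs and by 1.30 in single-reporter ESCs.

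Of the 6 crosslinking genes, all were higher in MEFs (median 3.29) and 5 in single-reporter ESCs (1.48). In 2i against serum 1 was lower, in EpiLCs against 2i 2 were higher and 1 lower, in EpiSCs against 2i 3 were higher, and in EpiSCs against EpiLCs 1 was higher and 2 lower. Loxl2 and Pxdn, a lysyl oxidase paralog and a peroxidase that crosslinks type IV collagen, were the higher genes in EpiLCs, and Lox was the lower one. Lox, the lysyl oxidase that starts fibril crosslinks, differed by -0.69 in 2i against serum (adjusted p = 0.57), fell by 3.62 in EpiLCs against 2i (0.0050), and rose by 4.08 in single-reporter ESCs (0.00083). On the EpiSC arrays it read 6.55 and 10.26, a gap like that of Col1a1, which widens its spread in every comparison. The 6 genes of procollagen secretion and processing had 5 higher in MEFs, 3 higher and 2 lower in single-reporter ESCs, 2 and 1 in 2i against serum, 1 and 3 in EpiLCs against 2i, 2 and 4 in EpiSCs against 2i, and 1 and 2 in EpiSCs against EpiLCs. The 6 receptor and uptake genes were all higher in MEFs, with 3 higher and 1 lower in single-reporter ESCs, 0 and 2 in 2i against serum, 3 and 1 in EpiLCs against 2i, 1 and 1 in EpiSCs against 2i, and 0 and 3 in EpiSCs against EpiLCs. Over all genes, 84% were called in MEFs, 63.1% in single-reporter ESCs and 39.7% in 2i against serum. The shares were 55.1% in EpiLCs against 2i, 66.3% in EpiSCs against 2i and 56.4% in EpiSCs against EpiLCs. In each comparison these calls were split about evenly between higher and lower. The lists of this paragraph are short and are given as counts only. Of 7 collagen-cleaving proteases, 6 were higher and 1 lower in MEFs, 3 higher in single-reporter ESCs and 3 lower in 2i against serum. Of 14 matrix partners, 11 were higher and 3 lower in MEFs, 8 and 1 in single-reporter ESCs, 2 and 3 in 2i against serum, and 3 and 4 in EpiLCs against 2i. Between the serum gates none of these genes was called, crosslinking and modification genes included, where 13 of all 10481 genes were called by limma and 578 had an unadjusted p under 0.05. Pcolce, the enhancer of procollagen C-terminal cleavage, fell by 3.23 in EpiLCs and fell by 3.21 in EpiSCs against 2i. Itga11, a collagen-binding integrin chain, rose by 6.72 in MEFs and by 5.75 in single-reporter ESCs. Ddr1, a collagen receptor kinase, rose by 3.05 in EpiLCs against 2i. Sparc, a collagen-binding matrix protein, was 0.82 higher in 2i (adjusted p = 0.060) and rose by 2.59 in single-reporter ESCs (1.8e-05).

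Across the 7 groups, MEFs were the highest group for 17 of the 27 collagen genes, single-reporter ESCs for 5, EpiSCs and 2i ESCs for 2 each, and EpiLCs for 1. Among the 23 genes detected on both arrays of a pluripotent group, single-reporter ESCs were the highest pluripotent group for 15, EpiSCs and 2i ESCs for 3 each, and EpiLCs for 2. Both rankings hold genes whose highest group was set by the choice of members. These are Col4a6, Col5a2, Col10a1 and Col27a1 for MEFs, Col14a1, Col15a1 and Col28a1 for single-reporter ESCs, and Col26a1 for EpiSCs. Places went by group mean, and for Col2a1, Col5a3, Col9a1, Col11a2, Col17a1 and Col18a1 the arrays of the first 2 groups overlapped. 7 genes had more than 1 kept probe. In 49 gene and comparison pairs of these, 27 had a call, and the probes had the same sign in 25. The exceptions were Col17a1 in 2i against serum and in single-reporter against double-reporter ESCs, where 1 of its 3 probes was called lower (-0.85 and -1.0) and the tested probe was not called.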

How the data were processed

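Total RNA of 14 samples was measured on Illumina mouse beadchips. The deposited table of the series gives each probe an intensity and a detection p-value on every array, per its header, and the submitters' processing notes name GenomeStudio 2011.1. The authors' deposited log2 values equal quantile-normalized scanner intensity without background correction within 0.01 for 100% of values. Here intensities were background-corrected and quantile-normalized with neqc (limma 3.58.1, R 4.3.3, offset 16) and taken to log2. Of the probes, 23978 had 1 symbol and 1719 none, and 23962 symbols matched the current RefSeq table. A gene was represented by its detected probe of highest mean signal. Samples were grouped by their titles, and 1 limma model over all 7 groups (residual df 7, prior df 2.5) gave 7 comparisons, with Benjamini-Hochberg adjustment over 10481 genes. The number of arrays limits precision.

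The collagen genes and gene lists were chosen with earlier results of these data known. Values on every array are given for collagens called with at least 1 log2 difference in a comparison among the pluripotent groups, and for the 3 fibrillar, 3 type IV and 4 other genes with the widest MEF difference. Of these, Col14a1, Col15a1, Col18a1, Col24a1, Col26a1 and Col28a1 are given partly as ranges over arrays. From each list up to 5 called genes per comparison could be named, besides Serpinh1, P4ha1, P4ha2, P4hb, Plod2, Lox and Sparc. Replicate numbers did not pair the arrays: the 21 correlations of same-numbered deviations were -0.03 to 0.09. Background correction, normalization, the authors' values, the detection filter, probe choice, the arrays fitted, the moderation, a replicate block and each array's removal were tried as alternatives. The script was tested on simulated data. The file names no chips, so chip was not fitted.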

Additional observations from a re-analysis of the deposited data

How the results depend on the processing

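None of the 63 called collagen differences of at least 1 log2 changed direction under the alternatives run, and 54 kept their call in every one, leaving out single arrays included. Among differences not called, those of Col5a1 (EpiSC against 2i and against EpiLC) and Col2a1 (EpiSC against EpiLC) changed sign and were called with 1 EpiSC array alone. Fitting only the groups compared gave 8 collagens higher and 5 lower for 2i against serum, 6 higher for EpiLC against 2i, 5 higher for EpiSC against 2i, 4 higher for EpiSC against EpiLC with 3403 of all genes called, and 0 of all genes between the serum gates. In that fit Col1a1, Col2a1, Col4a2, Col4a5, Col6a1 and Col7a1 lost their EpiSC against 2i call (adjusted p of 0.13, 0.082, 0.091, 0.063, 0.21 and 0.19). Leaving out both EpiSC arrays gave 7 and 6 for 2i against serum, 6 higher for EpiLC against 2i, and 46 of all genes between the serum gates. Without EpiSCs the 2i against serum difference of Col1a1 stayed at 0.89 while its SE went from 0.82 to 0.10. Col6a1 stayed at 1.07 while its SE went from 0.80 to 0.07. In the fits of only the groups compared, the parts of a changed spread and of fewer arrays were not tested.

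Leaving out 1 array at a time, collagens called higher and lower ranged over 2 to 7 and 1 to 6 (2i against serum), 2 to 6 and 5 to 8 (EpiLC against 2i), 10 to 12 and 6 to 9 (EpiSC against 2i), 5 to 16 and 2 to 5 (EpiSC against EpiLC), 16 to 18 and 4 to 6 (MEF), and 17 to 20 and 0 (single-reporter). All genes called ranged over 2916 to 5259, 4822 to 6605, 6072 to 7330, 4805 to 6323, 8113 to 9106 and 5566 to 7387 in the same order, and 1 to 46 between the serum gates. With the replicate number as a replicate block, which does not pair these arrays, the single-reporter count was 18 higher, EpiSC against EpiLC 9 higher, and the MEF (17 and 5), 2i (3 and 2), EpiLC (3 and 6) and EpiSC against 2i (11 and 8) counts were as without it; all genes called were 8786, 4112, 9, 5725, 6923, 5857 and 6598 for MEF, 2i, the serum gates, EpiLC, EpiSC against 2i, EpiSC against EpiLC and single-reporter.

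Scaling each array to its median moved the median of all genes to -0.22 for MEF, -0.11 for EpiLC against 2i and -0.17 for EpiSC against 2i, and the share of EpiLC calls that were higher from 49.9% to 39.3%. With types VII, XV and XVIII counted as basement membrane, its higher and lower counts were 5 and 1 in MEF, 1 and 1 in 2i, 2 and 1 in EpiLC, 6 and 0 and 3 and 0 in EpiSC, and 4 and 0 in single-reporter. The MEF count without both single-reporter arrays was chosen after seeing the data. Chip as a block was not run, since the file names no chips. Dim collagens near background have differences compressed by the offset.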
